A study of Zea mays with 40 samples.

Results

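The late kernels of both parents of a maize recombinant inbred population were compared. The parental lines are labelled T209 and T210, and the labels do not say which of them is DH1M and which is T877. The members are 8 of the 40 libraries of the study, chosen by line and time alone. They are T209 at 40 and 50 days after pollination (DAP) and T210 at the same 2 times, with 2 libraries in each of the 4 groups. The study sampled untreated seeds from the middle of 2 similar ears as biological repeats, from 4 inbred lines at 5 times between 10 and 50 DAP, and sequenced total RNA. Each library is thus RNA of whole kernels (embryo, endosperm, and seed coat together) from 1 ear of 1 inbred line. The p-values below set differences against the spread between ears. For the late line difference, fitted with DAP as a term, that spread also holds any change of the line difference between 40 and 50 DAP. The parents differ in the rate and duration of filling, and the comparison addresses which genes differ between them once filling is ending.

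By 40 DAP a maize kernel has laid down most of its starch and storage protein. The starchy endosperm then dies while the embryo and the aleurone stay alive. In the embryo, the late program under abscisic acid stores globulins and oil, and makes late embryogenesis abundant (LEA) proteins, dehydrins, and small heat shock proteins, which are known to protect cells as the seed dries. Phosphate is stored as phytate in the embryo and the aleurone. Water leaves the kernel as it matures, and aquaporins are the channels by which water crosses membranes.

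Expression was measured as FPKM, the reads on a gene per kilobase of its length and scaled to the mapped reads of the library. Differences are given as T209 minus T210 on the log2(FPKM + 1) scale, which understates the change of low genes, so a positive value is a higher level in T209. A gene was called when its adjusted p was under 0.05 in limma, fitted to the 8 libraries with DAP as a term, with Benjamini-Hochberg adjustment across the 29407 rows tested. Means are given ± SD with n = 4 libraries per line. No gene sequences or genome positions are printed because the reference used here held names alone.

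The late profiles separated first by line. The first principal component held 49.8% of the variance and separated the 4 libraries of T209 from the 4 of T210, and the second held 22.1%. Spearman's rho between the ears of a group was 0.916 for T209 at 40 DAP, 0.930 for T209 at 50 DAP, and 0.912 for T210 at 40 DAP, but 0.808 for T210 at 50 DAP. Between the lines at the same DAP it ranged from 0.654 to 0.712 at 40 DAP and from 0.690 to 0.767 at 50 DAP. Relative depth ranged from 0.888 to 1.2 over the 8 libraries, and the number of reads is unknown. The 10 highest rows held 13.6 to 17.8% of all FPKM in T209 and 18.8 to 26.4% in T210, and between 20764 and 25831 rows per library lay above 1 FPKM. Ear 1 of T210 at 50 DAP stood apart from its partner, and the named genes whose call turns on it are given with and without it. List counts are given both ways for some lists only. Those of embryo maturation, phosphatidylethanolamine-binding protein, and lipid transfer genes also change without that ear, through glb2, RAB15, ZCN9, PLTZ9, and LTP3.

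**Figure D1:**
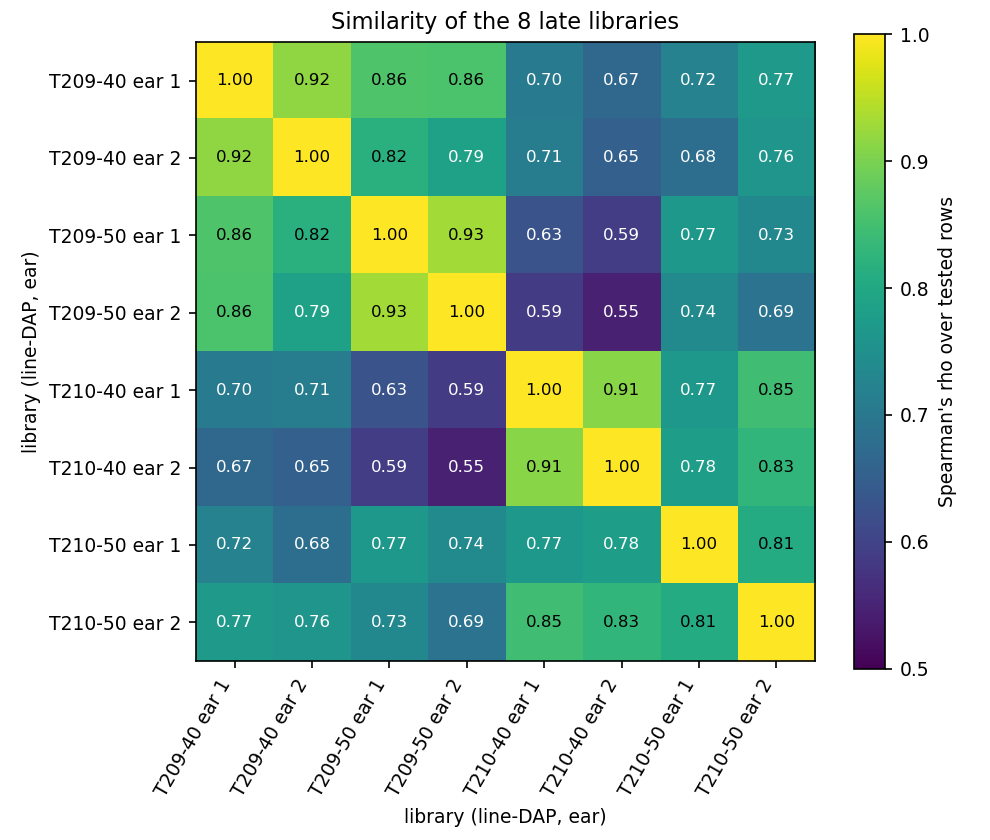
Spearman's rho between each pair of the 8 late libraries over the tested rows, with libraries by line, DAP, and ear on both axes. Ears of T209 at the same DAP reach at least 0.916, while the ears of T210 at 50 DAP reach 0.808.

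The labels were checked against rows that part the lines early. At 10 and 20 DAP, 14 rows were at 5 FPKM or more in every library of T210 and at least 10 times higher there than in any of T209. For 13 of these, the median was 0 FPKM in each late library of T209 and between 1.08 and 5.49 FPKM in those of T210. Of the 5 rows higher in T209 early by the same measure, GRMZM2G159724 was the only one above 2 FPKM late, and it stood at 30.6 and 41.2 FPKM at 40 DAP and 51.1 and 41.7 FPKM at 50 DAP in T209, and at 4.01 and 0.551 FPKM at 40 DAP and 1.72 and 5.12 FPKM at 50 DAP in T210. Of the 14 rows, 10 did not overlap between the lines late and 4 did, 3 of them under 1 FPKM in T210 at 50 DAP. The fourth was the gamma zein gene gz27 (GRMZM2G138727), an endosperm storage protein gene. It stood at 0.744 to 6.71 FPKM in the 4 libraries of T209 at 10 and 20 DAP, against 4265 to 11790.4 FPKM in T210. At 30 DAP the ears of T209 were apart, at 542 and 4.47 FPKM, and those of T210 were at 3097 and 5677 FPKM. Late, gz27 was at 12.3 and 21.1 FPKM at 40 DAP and 1.70 and 24.2 FPKM at 50 DAP in T209. In T210 it was at 49.9 and 11.4 FPKM at 40 DAP and 8.98 and 2.91 FPKM at 50 DAP. Its ratio to another gamma zein gene, gz50, was at most 0.00211 in T209 at 10 and 20 DAP. Late, this ratio was 1.08 to 1.58 in T209 and 1.18 to 3.37 in T210. Thus gz27 parted the lines early and not late, and the cause was not tested.

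The tissue label was checked against marker lists. The summed level of the 12 zein rows with distinct values, which mark the starchy endosperm, was 54260 to 65565 FPKM at 10 DAP in T209 and 6.73 to 140 FPKM in its late libraries. In T210 it was 16679 to 28074 FPKM at 10 DAP and 16.4 to 269 FPKM late. Sums over the 6 rows of the transfer layer and embryo-surrounding region were at most 3.54 FPKM in each late library, and none of these rows reached 1 FPKM in 2 of them. By contrast, the 12 embryo maturation rows summed to between 18388 and 28519 FPKM in the late libraries of T209, and to between 33093 and 43086 FPKM in those of T210. Of the aleurone markers, only the regulators Nkd1 and Nkd2 carried a symbol. Nkd1 was at 7.56 to 29.3 FPKM, and Nkd2 was low, at the levels given below with the endosperm regulators. The late libraries thus held little RNA of the starchy endosperm markers and much of the embryo markers, and the embryo sums of the lines did not overlap. The part of these sums in the results below was not tested. In whole kernels, fewer cells of a type and less RNA per cell cannot be told apart.

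**Figure D2:**
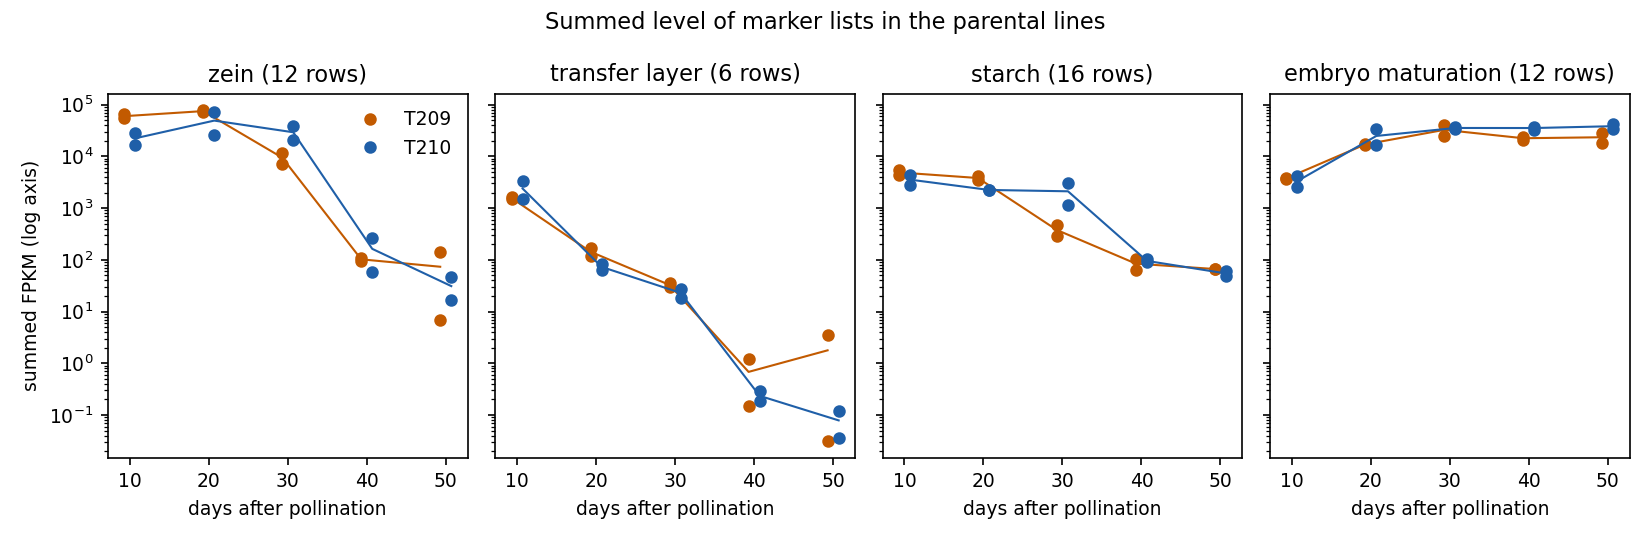
Summed FPKM of marker lists (log axis) against DAP in parental lines T209 and T210, with a point for each ear and a line through the means of 2 ears. Zein sums are at most 269 FPKM at 40 and 50 DAP, while embryo maturation sums stay at or above 18388 FPKM.

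The parents differed late in 9152 of the 29407 rows (31.1%). Of these, 6125 rows (20.8%) were expressed at a higher level in T209 and 3027 rows (10.3%) at a lower level. The libraries of the lines did not overlap in 6966 of the called rows. Over all tested rows 27.6% did not overlap, with T209 above in 18.8% and below in 8.84%. Differences of at least 1 log2 unit numbered 3903 in the direction of T209 and 2304 in that of T210, and differences of at least 2 log2 units numbered 660 and 614. The median over all tested rows was 0.27 in favour of T209. When the libraries were rescaled by the median ratio over 14844 rows above 1 FPKM in all 8, this median fell by 0.23 to 0.04, and the called rows were split into 3716 higher and 3812 lower. The share of calls higher in T209 thus went from 66.9% to 49.4%. Leaving out single libraries also moved the count, to 5310 (3368 higher and 1942 lower) without ear 2 of T210 at 40 DAP and to 3852 higher without ear 2 of T209 at 50 DAP. The rescaling sets the median ratio over the rows used to be equal in all libraries, so the near-even split largely follows from it. The excess of rows higher in T209 thus depends on the scaling used, and which scaling is right was not tested. Each list below is therefore given with its rescaled counts. Rows with a gene symbol, from which the lists were drawn, were called in 465 of 2035 cases (22.9%), 314 higher (15.4%) and 151 lower (7.42%). List shares below are set beside these values. Several lists were added after the values were seen, so this is no test of them.

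**Figure D3:**
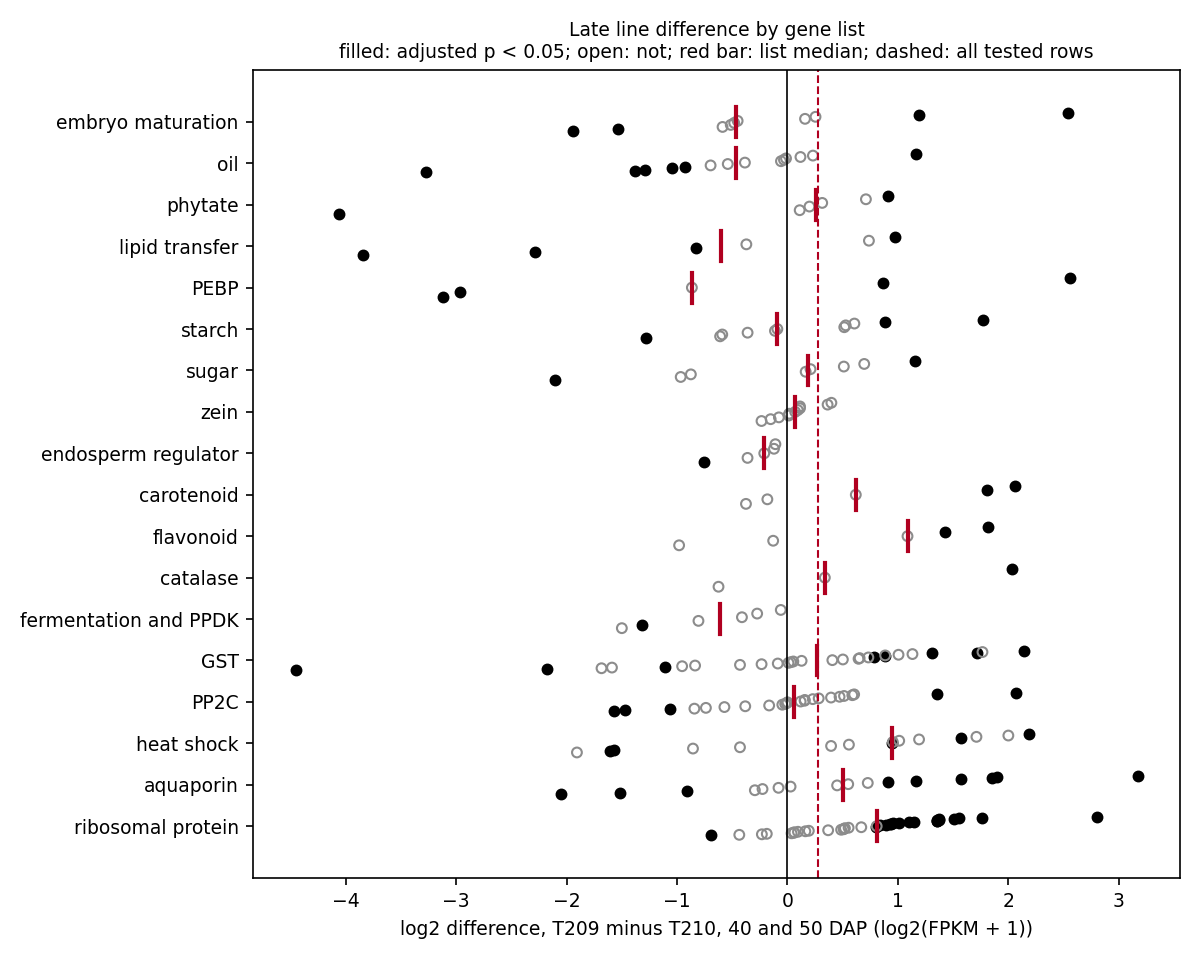
Late line difference (log2(FPKM + 1), T209 minus T210, 40 and 50 DAP) of each tested member of the gene lists, filled where the adjusted p was under 0.05, with a red bar at the list's median and a dashed line at 0.27, the median of all tested rows. Ribosomal protein rows lie mostly to the right of the dashed line, and zein rows lie near 0 with none called.

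Storage globulins and LEA genes of the embryo differed in both directions. Of 12 embryo maturation genes, 10 were tested. Of these, 2 were higher in T209 (20%, against 15.4% of rows with a symbol) and 2 were lower (20%, against 7.42%). The other 6 were not called, and the median was -0.47 (-0.76 after rescaling, with 1 higher and 2 lower). The vicilin-type globulin glb1 (GRMZM2G067919), a major storage protein of the embryo, was at 2425 and 2366 FPKM at 40 DAP and 3125 and 1076 FPKM at 50 DAP in T209. In T210 it was at 6569 and 13703 FPKM at 40 DAP and 6890.0 and 6861 FPKM at 50 DAP, and every T210 ear was above every T209 ear. Means were 2248 ± 854 FPKM and 8506 ± 3468 FPKM, a difference of -1.95 (SE 0.39, adjusted p = 0.00606), which was not called when no filter on low values was set (adjusted p = 0.055). The other abundant globulin, glb2 (GRMZM2G026703), went the opposite way. It was at 5337 and 6019 FPKM at 40 DAP and 8249.7 and 3354 FPKM at 50 DAP in T209 and at 1683 and 3508 FPKM at 40 DAP and 2451 and 2276 FPKM at 50 DAP in T210, a difference of 1.19 (SE 0.36, adjusted p = 0.0341). The lines overlapped for glb2, and its call was lost after rescaling (0.87, adjusted p = 0.144) and when any one of 6 libraries was left out (adjusted p = 0.0514 to 0.103). These were both ears of T209 at 40 DAP, ear 1 of T209 at 50 DAP, ear 1 of T210 at 40 DAP, and both ears of T210 at 50 DAP.

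EMB5 (GRMZM2G162659), a group 1 LEA gene of the drying embryo, was lower in T209. It was at 1740.4 and 1992 FPKM at 40 DAP and 2097 and 1922 FPKM at 50 DAP in T209 and at 8358 and 4327 FPKM at 40 DAP and 4482 and 6038 FPKM at 50 DAP in T210, without overlap, and the difference was -1.53 (SE 0.30, adjusted p = 0.00567), or adjusted p = 0.0604 with no filter. The dehydrin gene dhn2 (GRMZM2G373522) was higher in T209, at 18.2 and 8.66 FPKM at 40 DAP and 19.6 and 18.5 FPKM at 50 DAP, than in T210, at 3.11 and 0.434 FPKM at 40 DAP and 8.79 and 0.117 FPKM at 50 DAP, with overlap of a single pair of ears. Its difference was 2.54 (SE 0.61, adjusted p = 0.0135). DHN1, the abundant dehydrin also known as rab17, was not called. It was at 6981 and 5223 FPKM at 40 DAP and 10584 and 7130.2 FPKM at 50 DAP in T209 and at 6520.4 and 7179 FPKM at 40 DAP and 16121 and 12737 FPKM at 50 DAP in T210, a difference of -0.45 (SE 0.30, adjusted p = 0.281). The ABA-responsive gene RAB15 was not called either, at -0.59 (adjusted p = 0.408). Without ear 1 of T210 at 50 DAP, which held 1995 FPKM against 7979 to 13314 FPKM in the other T210 ears, its difference was -1.15 (adjusted p = 0.0398). The regulator vp1, an activator of embryo maturation genes, was at 0.25 (adjusted p = 0.693).

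Genes of oil bodies and of fatty acid desaturation were more often lower than higher in T209. Of 15 genes, 14 were tested. Of these, 1 was higher (7.14%, against 15.4% of rows with a symbol) and 5 were lower (35.7%, against 7.42%). The other 8 were not called, and the median was -0.46. The lower count was 3 without ear 2 of T209 at 40 DAP, either ear of T209 at 50 DAP, or either ear of T210 at 40 DAP. After rescaling 0 were higher and 6 were lower, with a median of -0.74. OLE16, an oleosin coating the oil body and the second most abundant row late, was not called, with means of 22419.9 ± 5758 FPKM in T209 and 22552 ± 5389.5 FPKM in T210 and a difference of -0.01 (SE 0.33, adjusted p = 0.981). The oleosin ole17 (GRMZM2G480954) was at 742 and 665 FPKM at 40 DAP and 1330.0 and 1170.3 FPKM at 50 DAP in T209 and at 1827 and 2978 FPKM at 40 DAP and 2588 and 1956 FPKM at 50 DAP in T210. Every T210 ear was above every T209 ear, and the difference was -1.29 (SE 0.30, adjusted p = 0.0115), or adjusted p = 0.057 with no filter. OLE18 went the other way, at 7768 and 5879.6 FPKM at 40 DAP and 17447 and 14594 FPKM at 50 DAP in T209 and 2840.3 and 2673 FPKM at 40 DAP and 12959 and 4712 FPKM at 50 DAP in T210. Its difference was 1.16 (SE 0.36, adjusted p = 0.035), and the lines overlapped. The OLE18 call was lost after rescaling (0.84, adjusted p = 0.16) and when any library other than ear 1 of T210 at 50 DAP was left out (0.90 to 1.24, adjusted p = 0.0671 to 0.0991).

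The row labelled fad2 (GRMZM2G064701), a desaturase of the type that makes linoleate from oleate, had the largest difference of the oil list. It was at 4.32 and 5.44 FPKM at 40 DAP and 11.1 and 7.92 FPKM at 50 DAP in T209 and at 144 and 301 FPKM at 40 DAP and 28.1 and 24.3 FPKM at 50 DAP in T210. The T210 ears were higher at 40 than at 50 DAP and lay above all T209 ears at both times. The difference was -3.27 (SE 0.66, adjusted p = 0.00649), and its change between 40 and 50 DAP was 3.78 (SE 0.56, adjusted p = 0.0618). The other desaturase row of that name, FAD2 (GRMZM2G056252), was at means of 139 ± 25.4 FPKM in T209 and 145 ± 26.2 FPKM in T210, a difference of -0.06 (SE 0.24, adjusted p = 0.877). OBAP2B (GRMZM2G107570), an oil-body-associated protein gene, was at 712 ± 93.1 FPKM in T209 and 1508 ± 420.5 FPKM in T210, a difference of -1.04 (SE 0.29, adjusted p = 0.0232). EREB85 (GRMZM2G124524), an AP2/ERF factor gene, was at 2.42 ± 0.914 FPKM in T209 and 8.17 ± 3.6 FPKM in T210, a difference of -1.38 (SE 0.27, adjusted p = 0.00607). Neither gene's libraries overlapped between the lines, but the OBAP2B call was lost without any one of the same 5 libraries that lowered the list's count (adjusted p = 0.0527 to 0.0719). The acyltransferase gene DGAT1-2, which makes the last step of oil synthesis, was not called (0.12, adjusted p = 0.752).

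By their symbols, rows mips2 and INO1 belong to the first step of phytate synthesis, and mips2 was lower in T209. The symbol mips2 (GRMZM2G004528) stands for myo-inositol phosphate synthase, which turns glucose 6-phosphate into the inositol ring of phytate. The row was at 34.8 and 14.8 FPKM at 40 DAP and 11.9 and 9.16 FPKM at 50 DAP in T209. In T210 it was at 473 and 829 FPKM at 40 DAP and 75.3 and 193 FPKM at 50 DAP. All T210 ears were above all T209 ears, with means of 17.7 ± 11.7 FPKM and 393 ± 335 FPKM and a difference of -4.07 (SE 0.43, adjusted p = 0.000363). INO1 (GRMZM2G155242), a symbol for the same enzyme, was not called (0.71, adjusted p = 0.197). The myo-inositol kinase gene MIK was higher in T209, at 76.8 ± 26.1 FPKM against 42 ± 20.1 FPKM, a difference of 0.91 (SE 0.23, adjusted p = 0.017), and the lines overlapped. The MIK call was lost after rescaling (0.60, adjusted p = 0.0928) and without ear 1 of T209 at 40 DAP or ear 2 of T210 at 40 DAP (adjusted p = 0.0503 and 0.0601). The other 4 of the 6 phytate genes were not called, among them MRP4, an ABC transporter needed to store phytate (0.11, adjusted p = 0.812). The list thus had 1 higher (16.7%, against 15.4% of rows with a symbol) and 1 lower (16.7%, against 7.42%). Its median was 0.26 (0 higher and 1 lower after rescaling, median -0.03).

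The lipid transfer protein gene plt1 (GRMZM2G101958) showed one of the largest differences among highly expressed genes. Lipid transfer proteins are small secreted proteins that bind lipids in the cell wall. It was at 186 and 118 FPKM at 40 DAP and 174 and 159 FPKM at 50 DAP in T209 and at 4171 and 4837 FPKM at 40 DAP and 990.2 and 1319 FPKM at 50 DAP in T210, a difference of -3.84 (SE 0.42, adjusted p = 0.000448). The T210 ears were higher at 40 than at 50 DAP, and all lay above the T209 ears. plt2 (GRMZM2G010868) showed the same order at a lower level, 5.32 ± 2.76 FPKM against 34.3 ± 24.3 FPKM, a difference of -2.29 (SE 0.30, adjusted p = 0.000939). Of the 6 lipid transfer genes, 3 were lower in T209 (50%, against 7.42% of rows with a symbol) and 1 was higher (16.7%, against 15.4%). The other 2 were not called, and the median was -0.60 (0 higher and 3 lower after rescaling, median -0.83). The called members of small difference, PLTZ9 (GRMZM2G094168, 0.98) and LTP3 (GRMZM2G126397, -0.82), each lost the call when any one of several libraries was left out. For PLTZ9 this held for every library except ear 2 of T209 at 40 DAP (adjusted p = 0.0647 to 0.131), and also after rescaling. Without ear 2 of T209 at 40 DAP, 2 lipid transfer genes were higher, with PLTZ8 (GRMZM2G093270) called (adjusted p = 0.028). For LTP3 the loss held for every library except ear 2 of T210 at 40 DAP and ear 2 of T210 at 50 DAP (adjusted p = 0.0554 to 0.0875).

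plt1 and mips2 were also read in earlier kernels. At 10 DAP plt1 was at 262 and 265 FPKM in T209 and 309 and 459 FPKM in T210. At 30 DAP it was at 2089 and 2070.2 FPKM in T209 and 5407 and 6271 FPKM in T210. From 30 DAP on, plt1 thus stood at or above 990.2 FPKM in T210, while in T209 it was at most 186 FPKM at 40 and 50 DAP. mips2 was at 319 and 98.6 FPKM in T209 and 680 and 427 FPKM in T210 at 30 DAP. The late difference minus that at 10 and 20 DAP was -3.07 (SE 0.42, adjusted p = 0.000781) for plt1, -3.71 (SE 0.52, adjusted p = 0.000945) for mips2, and -3.62 (SE 0.42, adjusted p = 0.000327) for fad2 (GRMZM2G064701).

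**Figure D4:**
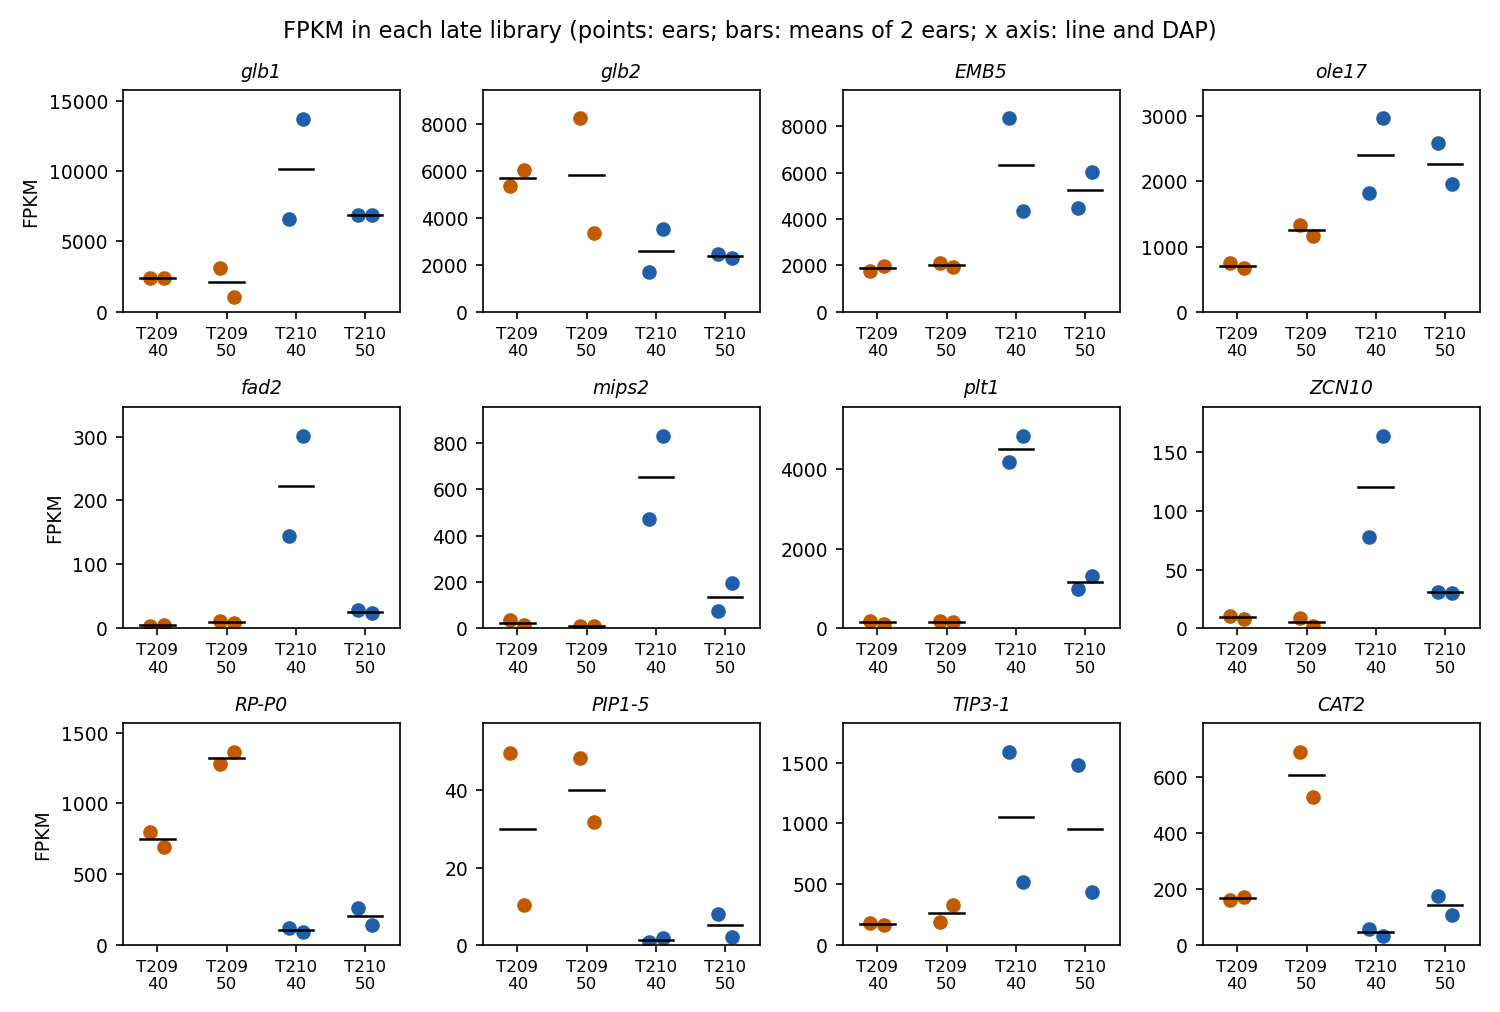
FPKM of selected genes in each late library (linear axis from 0), by line and DAP, with a point for each ear and a bar at the mean of the 2 ears of each group. For mips2 and plt1 the 4 ears of T210 lie above the 4 of T209, and for RP-P0 and CAT2 the ears of T209 lie above those of T210 at the same DAP.

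The phosphatidylethanolamine-binding protein (PEBP) family, which holds regulators of flowering and of dormancy, was measured at 5 of its 17 rows. The row ZCN10 (GRMZM2G059358) was at 10.6 and 8.17 FPKM at 40 DAP and 9.10 and 2.24 FPKM at 50 DAP in T209 and 77.4 and 164 FPKM at 40 DAP and 31.3 and 30.0 FPKM at 50 DAP in T210, a difference of -2.97 (SE 0.41, adjusted p = 0.0012). A second ZCN10 row (GRMZM2G152689) gave -3.12 (SE 0.42, adjusted p = 0.0011), and because the rows had nearly the same profile they may share reads and are uncertain as separate genes. ZCN9 (GRMZM2G021614) went the opposite way, at 118 and 93.5 FPKM at 40 DAP and 120.4 and 148 FPKM at 50 DAP in T209 and 10.8 and 70.1 FPKM at 40 DAP and 2.31 and 59.5 FPKM at 50 DAP in T210, a difference of 2.56 (SE 0.85, adjusted p = 0.0443). The lines did not overlap, but the ZCN9 call was lost after rescaling (2.26, adjusted p = 0.0885) and when any library other than ear 2 of T210 at 40 DAP or at 50 DAP was left out (adjusted p = 0.0543 to 0.113). ZCN11 (GRMZM2G117057) was low, at 1.49 ± 0.536 FPKM and 0.354 ± 0.168 FPKM, and its call was lost without ear 1 of T209 at 40 DAP or ear 2 of T209 at 50 DAP (adjusted p = 0.0509 and 0.0583). The family had 2 members higher (40% of those tested, against 15.4% of rows with a symbol) and 2 lower (40%, against 7.42%). Its remaining tested member was not called, and the median was -0.87 (1 higher and 2 lower after rescaling, median -0.94).

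Of the ribosomal protein genes called, all but RPS10 were expressed at a higher level in T209. Of 46 rows, 37 were tested, of which 19 were higher (51.4%), 1 was lower, and 17 were not called. The median was 0.81, and that over all tested rows was 0.27. Of rows with a symbol, 15.4% were higher. The list was added after the values were seen, so setting these values side by side is no test of it. After rescaling, 11 were higher and 1 was lower, with a median of 0.50. RP-P0, the acidic stalk protein of the large subunit, was at 796 and 693 FPKM at 40 DAP and 1277 and 1362 FPKM at 50 DAP in T209 and 115 and 93.5 FPKM at 40 DAP and 259.7 and 141 FPKM at 50 DAP in T210. The lines did not overlap, with means of 1032 ± 337 FPKM and 152 ± 74.1 FPKM and a difference of 2.80 (SE 0.26, adjusted p = 0.000196). rpl35A of the large subunit (GRMZM2G177098) was at 25.4 ± 5.69 FPKM against 7.12 ± 3.31 FPKM, a difference of 1.76 (SE 0.29, adjusted p = 0.00283). RPS21 of the small subunit was at 70.8 ± 6.63 FPKM against 24.2 ± 7.30 FPKM, a difference of 1.56 (SE 0.26, adjusted p = 0.0029). The exception was RPS10 (GRMZM6G870163), with 7.64 ± 1.95 FPKM in T209 and 12.8 ± 1.76 FPKM in T210, a difference of -0.70 (SE 0.21, adjusted p = 0.0342). The RPS10 call was lost without any library other than ear 2 of T209 at 40 DAP or ear 1 of T210 at 50 DAP (adjusted p = 0.0525 to 0.0978). Across the libraries left out in turn, 14 to 20 ribosomal rows were higher and 0 or 1 was lower. The late RP-P0 difference minus that at 10 and 20 DAP was 2.85 (SE 0.37, adjusted p = 0.000609). Ribosomal genes are known in near-identical copies, and 3 rows with the same 40 values as another were counted once.

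Called aquaporin genes were found in both directions. Of 29 aquaporin genes, 16 were tested. Of these, 6 were higher in T209 (37.5%, against 15.4% of rows with a symbol) and 3 were lower (18.8%, against 7.42%). The other 7 were not called, and the median was 0.50 (4 higher and 3 lower after rescaling, median 0.22). PIP1-5, a channel of the plasma membrane, was at 49.7 and 10.2 FPKM at 40 DAP and 48.3 and 31.9 FPKM at 50 DAP in T209 and 0.801 and 1.86 FPKM at 40 DAP and 8.0 and 2.02 FPKM at 50 DAP in T210. All T209 ears were above all T210 ears, and the difference was 3.17 (SE 0.50, adjusted p = 0.00225). PIP2-4 was at 27.6 ± 6.42 FPKM against 6.70 ± 1.84 FPKM, a difference of 1.89 (SE 0.26, adjusted p = 0.00116). PIP2-1 (1.85, adjusted p = 0.0111), PIP1-3 (1.57, adjusted p = 0.00443), PIP2-2 (1.17, adjusted p = 0.00922), and SIP1-2 (0.91, adjusted p = 0.0297) were also higher. After rescaling the calls of PIP2-2 (0.86, adjusted p = 0.0527) and SIP1-2 (0.65, adjusted p = 0.124) were lost, and that of SIP1-2 also without any library other than ear 2 of T209 at 40 DAP or ear 2 of T210 at 40 DAP (adjusted p = 0.0534 to 0.0877). PIP2-6, another plasma membrane channel, was lower in T209 (-1.52, adjusted p = 0.0218), as was SIP2-1 (-0.91, adjusted p = 0.0357). The PIP2-6 call was lost without either ear of T209 at 50 DAP (adjusted p = 0.0575 and 0.0597), which left 1 aquaporin lower, and the SIP2-1 call without any library other than ear 1 of T210 at 50 DAP (adjusted p = 0.0623 to 0.0945).

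TIP3-1, a seed aquaporin of the storage vacuole membrane, was lower in T209. It was at 179 and 162 FPKM at 40 DAP and 188 and 329 FPKM at 50 DAP in T209 and 1590.4 and 519.6 FPKM at 40 DAP and 1479 and 435 FPKM at 50 DAP in T210, so the lines did not overlap but the T210 ears of each DAP differed among themselves. The difference was -2.05 (SE 0.47, adjusted p = 0.0109). TIP3-2, the related vacuolar channel, was not called, at 259 ± 152 FPKM against 187 ± 143 FPKM, a difference of 0.45 (SE 0.45, adjusted p = 0.471). PIP1-2, the most abundant plasma membrane row, was at 468 and 357 FPKM at 40 DAP and 542 and 567 FPKM at 50 DAP in T209 and 246 and 169 FPKM at 40 DAP and 779 and 209.1 FPKM at 50 DAP in T210 and was not called (0.73, adjusted p = 0.181). Without ear 1 of T210 at 50 DAP it was called, at 1.16 (adjusted p = 0.0109).

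Catalase, carotenoid, and flavonoid genes that were called with all 8 libraries were all higher in T209. Of all 465 called rows with a symbol, 314 were higher. CAT2, a catalase that removes hydrogen peroxide, was at 162 and 172 FPKM at 40 DAP and 690.1 and 531 FPKM at 50 DAP in T209 and 57.3 and 31.6 FPKM at 40 DAP and 175 and 108 FPKM at 50 DAP in T210. Within each DAP the T209 ears lay above the T210 ears, while the 40 DAP ears of T209 overlapped 1 ear of T210 at 50 DAP, and the difference was 2.04 (SE 0.27, adjusted p = 0.0011). CAT1 and CAT3 were not called (0.34, adjusted p = 0.313, and -0.62, adjusted p = 0.271), so that 1 of the 3 catalases was higher and 0 were lower, also after rescaling, with a median of 0.34, or 0.02 after rescaling.

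Of 7 carotenoid genes, 5 were tested and 2 were called, with a median of 0.62 (0.30 after rescaling, with the same count of 2 higher and 0 lower). lcyE (GRMZM2G012966), the cyclase that directs carotenoids toward lutein, was at 5.04 and 5.12 FPKM at 40 DAP and 5.27 and 3.57 FPKM at 50 DAP in T209 and 0.461 and 0.0380 FPKM at 40 DAP and 0.0708 and 1.13 FPKM at 50 DAP in T210, without overlap. The difference was 2.06 (SE 0.29, adjusted p = 0.00133). CCD1 (GRMZM2G057243), a dioxygenase that cleaves carotenoids, was at 14.3 ± 3.26 FPKM against 3.40 ± 1.14 FPKM, a difference of 1.81 (SE 0.28, adjusted p = 0.00218). The phytoene desaturase gene PDS1, an earlier step, was not called (-0.18, adjusted p = 0.568).

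Of 10 flavonoid genes, 5 were tested and 2 were higher in T209, with a median of 1.09 (0.91 after rescaling, with 2 higher). bz2 (GRMZM2G016241), the glutathione transferase needed to bring anthocyanins into the vacuole, was at 1.60 and 2.98 FPKM at 40 DAP and 3.69 and 5.90 FPKM at 50 DAP in T209 and 0 and 0.0266 FPKM at 40 DAP and 0.712 and 0.241 FPKM at 50 DAP in T210. These were low levels without overlap, and the difference was 1.82 (SE 0.25, adjusted p = 0.00128). BZ1 (GRMZM2G165390), the glucosyltransferase of anthocyanin synthesis, gave 1.43 (SE 0.38, adjusted p = 0.0202). Its call was lost without ear 2 of T209 at 40 DAP, ear 1 of T209 at 50 DAP, or ear 2 of T210 at 40 DAP (adjusted p = 0.054 to 0.0612). The regulators r1 and p1 were at or near 0 and were not tested, and the MYB regulator c1 was not called (1.09, adjusted p = 0.133). When ear 1 of T210 at 50 DAP was left out, 3 flavonoid genes were higher and 1 was lower, with c1 (adjusted p = 0.00319) and the flavanone hydroxylase gene fht1 (GRMZM2G062396, adjusted p = 0.042) called.

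Zein genes were low at this age and none was called, while starch and sugar genes were called at shares near the 22.9% of all rows with a symbol. None of the 11 tested zein rows was called, and their differences ranged from -0.23 to 0.40 (median 0.07, or -0.04 after rescaling). Zein sums varied between ears, at 6.73 and 140 FPKM in T209 at 50 DAP and 269 and 57.6 FPKM in T210 at 40 DAP. With 1 library left out, the list's median ranged from -0.34 to 0.42. The lines are thus not shown to be alike in zein level. Of the 11 tested starch genes, 2 were higher in T209, 1 was lower, and 8 were not called, with a median of -0.09 (-0.24 after rescaling, with 1 higher and 1 lower). pho1 (GRMZM2G074158), a starch phosphorylase, was at 16.8 and 29.9 FPKM at 40 DAP and 18.3 and 18.1 FPKM at 50 DAP in T209 and 4.68 and 4.51 FPKM at 40 DAP and 9.48 and 3.53 FPKM at 50 DAP in T210, a difference of 1.77 (SE 0.32, adjusted p = 0.00392) without overlap. The branching enzyme gene sbe1 (GRMZM2G088753) was at 6.45 ± 2.93 FPKM against 17.1 ± 6.82 FPKM, a difference of -1.29 (SE 0.34, adjusted p = 0.0189). Its call was lost without ear 2 of T209 at 50 DAP or without either ear of T210 at 40 DAP (adjusted p = 0.053 to 0.0616). The pullulanase gene zpu1 (GRMZM2G158043) was at 1.56 ± 0.515 FPKM against 0.386 ± 0.321 FPKM (0.89, adjusted p = 0.0256). The zpu1 call was lost after rescaling (adjusted p = 0.0506) and without any library other than ear 1 of T209 at 40 DAP and ear 1 of T210 at 40 DAP (adjusted p = 0.0509 to 0.0743). Without ear 1 of T210 at 50 DAP, 1 starch gene was higher and 2 were lower, with the ADP-glucose gene agpsl1 (GRMZM2G163437) called (adjusted p = 0.049). The genes of ADP-glucose supply, sh2 (0.51, adjusted p = 0.194) and bt2 (0.61, adjusted p = 0.0529), were not called.

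The cell wall invertase gene incw1 (GRMZM2G139300), of a family whose enzymes split sucrose, was lower in T209. It was at 29.2 and 18.9 FPKM at 40 DAP and 2.67 and 3.72 FPKM at 50 DAP in T209 and 176 and 74.5 FPKM at 40 DAP and 11.9 and 19.4 FPKM at 50 DAP in T210. At each DAP both T210 ears were above both T209 ears, and the difference was -2.10 (SE 0.32, adjusted p = 0.00193). Of the 8 sugar genes tested, 1 was higher, 1 was lower, and 6 were not called, with a median of 0.19 (-0.04 after rescaling, with 0 higher and 2 lower). The one higher, the sucrose transporter gene sut4 (GRMZM2G307561), had a difference of 1.16 (SE 0.34, adjusted p = 0.0296) and lost its call after rescaling (0.86, adjusted p = 0.112). It also lost it without any 1 of the 4 ears of T209 or ear 2 of T210 at 40 DAP (adjusted p = 0.0542 to 0.0803). Without ear 1 of T210 at 50 DAP, 3 sugar genes were lower, with the sucrose synthase genes sh1 (adjusted p = 0.00807) and sus1 (GRMZM2G152908, adjusted p = 0.0489) called. The pyruvate phosphate dikinase gene pdk1 (GRMZM2G306345) was lower in T209, 5.91 ± 3.68 FPKM against 15.7 ± 8.45 FPKM, with a difference of -1.32 (SE 0.33, adjusted p = 0.0148) that was not called without ear 2 of T210 at 40 DAP (-1.14, adjusted p = 0.0528). It was the 1 called of 6 genes of fermentation and dikinase (median -0.61, or -0.92 after rescaling). Without ear 1 of T210 at 50 DAP the alcohol dehydrogenase gene adh1 (GRMZM2G442658) was called as well, at -1.07 (adjusted p = 0.0362). ADH2 was called without ear 2 of T209 at 50 DAP or ear 2 of T210 at 50 DAP (adjusted p = 0.0316 and 0.0398), so the list's lower count went from 0 to 2.

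Of 9 endosperm regulators, 5 were tested, and o2 and PBF, activators of zein genes, were among those under the minimum. The aleurone regulator Nkd2 (GRMZM5G884137) was the 1 called, at 0.920 ± 0.451 FPKM against 2.40 ± 1.30 FPKM (-0.76, adjusted p = 0.0467). That call was lost without any library other than ear 1 of T210 at 50 DAP (adjusted p = 0.0837 to 0.123). The list's median was -0.21 (-0.51 after rescaling, with 0 higher and 1 lower). Of the 8 genes that the study associated with filling, 4 were tested late and none was called, with differences of 0.34 for GRMZM2G136106, -0.36 for the starch synthase gene GRMZM2G008263, 0.26 for GRMZM5G843748, and -0.66 for GRMZM2G125923. The other 4 did not reach 1 FPKM in 2 late libraries.

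Heat shock calls changed with any single library left out. Leaving out ear 1 of T210 at 50 DAP raised the count of rows higher in T209, and leaving out any other library lowered it. Small heat shock proteins and HSP70 bind unfolding proteins and accumulate in drying embryos. Of 16 rows, 15 were tested. Of these, 3 were higher in T209 (20%, against 15.4% of rows with a symbol) and 2 were lower (13.3%, against 7.42%). The other 10 were not called, and the median was 0.95. After rescaling 0 were higher and 3 were lower, with a median of 0.63. Ear 1 of T210 at 50 DAP held the highest level of all 8 libraries for 10 of the 15 rows, and its summed level was 14640.4 FPKM against 1083 to 6101 FPKM in the other 7. Without that ear, 8 rows were higher in T209 and 2 were lower, with a median of 1.19. Over all libraries left out in turn, 0 to 8 rows were higher.

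The small heat shock gene hsp18c (GRMZM2G034157) was at 997 and 526 FPKM at 40 DAP and 1295 and 2123 FPKM at 50 DAP in T209 and 47.4 and 69.4 FPKM at 40 DAP and 4324 and 382 FPKM at 50 DAP in T210. Of the T210 ears, 3 were below all T209 ears and 1 was above them all. The difference was 2.00 (SE 0.82, adjusted p = 0.089) with all 8 libraries and 3.03 (SE 0.41, adjusted p = 0.00166) without ear 1 of T210 at 50 DAP. HSP70 was at 283 and 283 FPKM at 40 DAP and 707 and 629.7 FPKM at 50 DAP in T209 and 27.6 and 35.7 FPKM at 40 DAP and 1015 and 78.1 FPKM at 50 DAP in T210, with the same single ear above the rest. Its difference was 2.18 (SE 0.70, adjusted p = 0.0394), and 3.11 (adjusted p = 0.000149) without that ear. The HSP70 call was lost without any one of the other 7 libraries (adjusted p = 0.0531 to 0.114) and after rescaling (1.87, adjusted p = 0.0883). hsp22 (GRMZM2G007729) went from 1.71 (adjusted p = 0.0874) to 2.60 (adjusted p = 0.000996), and the disaggregase gene hsp101 (GRMZM2G360681) from 1.19 (adjusted p = 0.23) to 2.09 (adjusted p = 0.00395). The 2 rows called lower were hsp70-4 (GRMZM2G340251) at -1.57 (adjusted p = 0.0356) and GRMZM2G158232 at -1.61 (adjusted p = 0.0255). Without ear 1 of T210 at 50 DAP they were at -2.09 and -1.08. These calls were lost without any one of 6 and of 4 libraries, respectively. HSP82 was at -1.91 (adjusted p = 0.0652) and was called lower after rescaling (-2.22, adjusted p = 0.0491). What set ear 1 of T210 at 50 DAP apart was not tested.

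**Figure D5:**
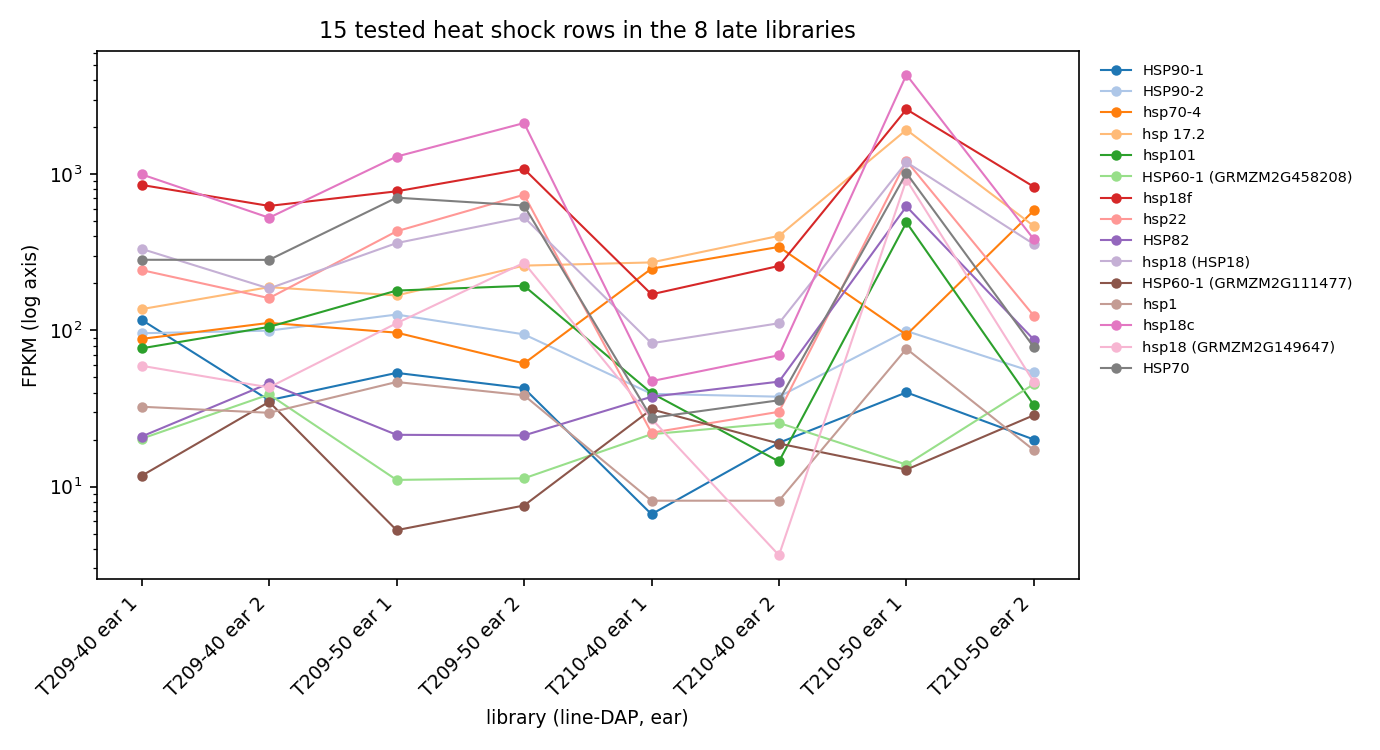
FPKM (log axis) of the 15 tested heat shock rows in each of the 8 late libraries, with a line for each row. Ear 1 of T210 at 50 DAP is the highest library for 10 of the 15 rows.

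Glutathione transferase (GST) genes, whose enzymes detoxify by adding glutathione, were called in both directions. Their shares, 17.9% of tested genes higher and 10.7% lower, lay near the 20.8% and 10.3% of all tested rows. Rows with a symbol gave 15.4% and 7.42%. Of 32 genes, 28 were tested; 5 were higher in T209, 3 were lower, and 20 were not called, with a median of 0.27 (-0.00 after rescaling, with 2 higher and 3 lower). The count of higher GST genes was 1 without ear 1 of T209 at 40 DAP or ear 2 of T210 at 40 DAP, 2 without ear 2 of T209 at 50 DAP, and 3 without ear 2 of T209 at 40 DAP, ear 1 of T209 at 50 DAP, or ear 1 of T210 at 40 DAP. It was 7 without ear 2 of T210 at 50 DAP, and 2 or 3 were lower throughout. gst7 (GRMZM2G028556) was listed at 0 in 3 libraries of T209 and at 0.233 FPKM in ear 2 at 40 DAP. In T210 it was at 11.4 and 43.9 FPKM at 40 DAP and 2.99 and 128 FPKM at 50 DAP, a wide spread that lay above all T209 ears, and the difference of log2(FPKM + 1) was -4.46 (SE 0.88, adjusted p = 0.00592). gst28 (GRMZM2G146475) was lower in T209, at 0.250 ± 0.0978 FPKM against 5.26 ± 3.66 FPKM, a difference of -2.17 (SE 0.35, adjusted p = 0.0024). gst30 (GRMZM2G044383) was higher, at 86.5 and 54.1 FPKM at 40 DAP and 234 and 235 FPKM at 50 DAP in T209 and 40.1 and 29.2 FPKM at 40 DAP and 39.8 and 44.1 FPKM at 50 DAP in T210, a difference of 1.72 (SE 0.33, adjusted p = 0.00547). gst35 (GRMZM2G161891) was also higher (2.14, adjusted p = 0.0158), but not without ear 1 of T209 at 40 DAP or ear 2 of T210 at 40 DAP (adjusted p = 0.0527 and 0.0528).

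Phosphatases of type 2C (PP2C), some of which restrain abscisic acid signalling, were mostly not called. The shares called were 8.33% higher and 12.5% lower, against 15.4% and 7.42% of rows with a symbol. Of 25 rows, 24 were tested; 2 were higher in T209, 3 were lower, and 19 were not called, with a median of 0.06 (-0.16 after rescaling, with 2 higher and 5 lower). When ear 1 of T210 at 50 DAP was left out, 5 were lower, with PP2C23 (GRMZM2G360455, adjusted p = 0.0203) and PP2C3 (GRMZM2G059453, adjusted p = 0.0388) called. PP2C15 (GRMZM2G300125) was higher, at 5.67 and 5.27 FPKM at 40 DAP and 18.1 and 16.3 FPKM at 50 DAP in T209 and 3.76 and 1.22 FPKM at 40 DAP and 2.00 and 0.403 FPKM at 50 DAP in T210, a difference of 2.07 (SE 0.47, adjusted p = 0.0107). PP2C16 (GRMZM2G082487) was lower, at 30.9 and 61.3 FPKM at 40 DAP and 88.3 and 105 FPKM at 50 DAP in T209 and 185 and 146 FPKM at 40 DAP and 323 and 162 FPKM at 50 DAP in T210, a difference of -1.57 (SE 0.32, adjusted p = 0.00682). Neither had overlap between the lines. PP2C17 (GRMZM2G040452, -1.47) and PP2C11 (GRMZM2G308615, -1.06) were also lower, and the row PP2C (GRMZM2G166035, 1.36) was also higher.

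From all rows with a symbol, the 12 largest differences in each direction without overlap were taken as a further set, with no list behind it. In the direction of T209, CYP71C2 (BX3), an enzyme of benzoxazinoid defence compounds, was at 12.7 ± 4.33 FPKM against 0.819 ± 0.631 FPKM, a difference of 2.92 (SE 0.36, adjusted p = 0.000768). The expansin gene EXPA5 (GRMZM2G361064), whose product loosens cell walls, was at 9.23 ± 3.09 FPKM against 0.682 ± 0.843 FPKM, a difference of 2.67 (SE 0.35, adjusted p = 0.000967). The factor gene bHLH7 (GRMZM2G042920, 2.79), the annexin gene Ann5 (GRMZM2G172834, 2.43), and the calcium-linked kinase gene cipk31 (GRMZM2G174896, 2.36) were also in the set. So were TMT (GRMZM2G035213, 2.85), AR5 (GRMZM2G087507, 2.78), and sat1 (GRMZM2G069203, 2.62). The row sat1 was at 1049 to 1565 FPKM in T209. PIP1-5, RP-P0, and ZCN9, given above, were also among the 12.

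In the direction of T210, Pep1 (GRMZM5G899080) was at 0.562 and 0.338 FPKM at 40 DAP and 0.336 and 0.520 FPKM at 50 DAP in T209 and 36.4 and 77.7 FPKM at 40 DAP and 13.2 and 22.8 FPKM at 50 DAP in T210, a difference of -4.46 (SE 0.38, adjusted p = 0.000143). CISZOG1, a glucosyltransferase that stores the cytokinin cis-zeatin as its O-glucoside, was at 8.86 and 8.83 FPKM at 40 DAP and 19.6 and 13.1 FPKM at 50 DAP in T209 and 137 and 119 FPKM at 40 DAP and 187 and 108 FPKM at 50 DAP in T210. The lines did not overlap, and the difference was -3.39 (SE 0.27, adjusted p = 9.92e-05). IN2-1, a gene induced by herbicide safeners, was at 0.982 ± 0.642 FPKM against 29.0 ± 22.6 FPKM, a difference of -3.69 (SE 0.34, adjusted p = 0.000182). BURP4 (GRMZM5G800586, -3.39), CoAp15.2 (GRMZM2G112535, -2.74), and afd1 (GRMZM2G059037, -2.64), the gene of the meiotic cohesin REC8, were also in the set. Late, afd1 was at 0.127 ± 0.0780 FPKM and 8.51 ± 7.67 FPKM. The remaining 6 rows were mips2, plt1, fad2 (GRMZM2G064701), gst7, and both ZCN10 rows, given above.

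Some rows were listed at 0 in one line. At 0 FPKM in all 4 late libraries of T209 and at least 1 FPKM in all 4 of T210 were 286 rows, of which 203 were assembled loci without a gene name and 74 had GRMZM names. Yucca2, of a family of auxin synthesis enzymes, was the only symbol among them, and 43 of the rows were at 0 in all 10 libraries of T209. The reverse held for 18 rows, all of them assembled loci. Levels of at least 5 FPKM and at least 10 times the highest library of the other line, in every library of a line, were met by 96 rows in the direction of T210 and by 10 in that of T209. Both counts were larger on the side of T210.

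The line difference was also tested at each DAP. With the DAP taken singly, 6129 rows (20.8%) were called at 40 DAP, 3385 higher (11.5%) and 2744 lower (9.33%), and 3194 rows (10.9%) at 50 DAP, 1992 higher (6.77%) and 1202 lower (4.09%). After rescaling the larger count was on the other side, with 1979 higher and 3195 lower at 40 DAP and 1271 higher and 1355 lower at 50 DAP. Called at both times in the same direction were 1923 rows, and in opposite directions 9. The count at 50 DAP rested on single libraries. It was 103 without ear 2 of T209 at 50 DAP, 728 without ear 1 of T209 at 50 DAP, and 4453 without ear 1 of T210 at 50 DAP. That at 40 DAP was 1403 without ear 2 of T210 at 40 DAP, and between 2143 and 2688 without any one of the other 3 libraries of 40 DAP. Of the late calls, 62.6% had the larger absolute difference at 40 DAP, a share near the 59.2% of all tested rows. Their median absolute difference was 1.30 at 40 DAP and 1.09 at 50 DAP. Within the lines, 192 rows (0.653%) were called between 40 and 50 DAP in T209, 86 higher at 50 DAP (0.292%) and 106 lower (0.36%). In T210 they numbered 528 (1.8%), 110 higher (0.374%) and 418 lower (1.42%), and rows with an unadjusted p under 0.05 numbered 4936 in T209 and 4451 in T210.

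A test of the change itself called 42 rows (0.143%), 25 with a more positive difference at 50 DAP (0.085%) and 17 with a more negative one (0.0578%), and 2932 rows had an unadjusted p under 0.05. Among those with a symbol was CYP92C6 (GRMZM2G139467), a cytochrome P450 of volatile terpene synthesis, which was at 16.3 and 16.8 FPKM at 40 DAP and 0.0478 and 0 FPKM at 50 DAP in T210 and at most 0.264 FPKM in T209. The change was 3.94 (SE 0.37, adjusted p = 0.0181). ADH2, an alcohol dehydrogenase of fermentation, was at 9.28 and 9.52 FPKM at 40 DAP and 0.507 and 0.0286 FPKM at 50 DAP in T210 and at most 0.558 FPKM in T209, with a change of 3.25 (SE 0.43, adjusted p = 0.0468). HAK21 (GRMZM2G438960), of a potassium transporter family, was at 13.2 and 15.9 FPKM at 40 DAP and 0.0929 and 0.337 FPKM at 50 DAP in T209 and at 0 in all 4 libraries of T210, with a change of -3.68 (SE 0.38, adjusted p = 0.0263). All 3 calls were lost without a filter (adjusted p = 0.122 to 0.133), with the filter of 5 FPKM (adjusted p = 0.0736 to 0.125), and with the ear number as a block (adjusted p = 0.0769 to 0.114). They were also lost with one library left out in turn, with adjusted p up to 0.171 for CYP92C6, 0.303 for ADH2, and 0.204 for HAK21. For CYP92C6 this held for all 4 ears of T209 and ear 2 of T210 at 50 DAP. For ADH2 it held for all 4 ears of T209 and both ears of T210 at 50 DAP, and for HAK21 for both ears of T209 at 50 DAP and all 4 ears of T210.

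Most of the late calls were not called in early kernels. At 10 and 20 DAP, 5977 of 35962 tested rows (16.6%) were called between the parents, 2529 higher (7.03%) and 3448 lower (9.59%). Of the 9152 late calls, 1953 (21.3%) were called early in the same direction, 151 (1.65%) in the opposite direction, and 7048 were not called early. The late and early comparisons contrast different libraries. The early test, however, took its spread and its row filter from all 16 libraries, the late ones included. Since a call in one comparison and not in the other does not show a difference between them, the change was tested. The late minus early difference was called in 6921 rows (19.2%), 4974 more positive late (13.8%) and 1947 more negative (5.41%), and after rescaling in 2698 and 2678 rows.

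Several of the genes above had a late difference that departed from the early one. Besides plt1, mips2, fad2, and RP-P0, the change was -4.16 (SE 0.77, adjusted p = 0.00381) for TIP3-1, 2.94 (SE 0.61, adjusted p = 0.00665) for PIP1-5, and 1.70 (SE 0.41, adjusted p = 0.0132) for CAT2. CISZOG1 was lower in T209 early as well, and its change was -1.42 (SE 0.33, adjusted p = 0.0118). Not called were the changes of -1.57 (SE 0.59, adjusted p = 0.0825) for glb1, -1.30 (SE 0.96, adjusted p = 0.379) for EMB5, -0.98 (SE 0.57, adjusted p = 0.255) for ole17, and 0.14 (SE 0.41, adjusted p = 0.851) for incw1, so their late differences are not shown to differ from the early ones. The glb1 change was called without ear 1 of T209 at 50 DAP (adjusted p = 0.0376). The CAT2 change was not called after rescaling (1.33, adjusted p = 0.0594).

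With 30 DAP as the early time, fewer changes were called. The change was called for RP-P0 (2.61, adjusted p = 0.0159) and plt1 (-2.36, adjusted p = 0.0229). It was not called for mips2 (-2.47, adjusted p = 0.117), fad2 (-1.58, adjusted p = 0.17), TIP3-1 (-1.21, adjusted p = 0.507), PIP1-5 (2.04, adjusted p = 0.285), CAT2 (1.24, adjusted p = 0.344), or CISZOG1 (-0.83, adjusted p = 0.429). Of all rows, 1299 were called with 30 DAP against 6921 with 10 and 20 DAP. At 30 DAP each line has 2 libraries, fewer than at 10 and 20 DAP together. A lost call thus does not show that the line difference was already present at 30 DAP.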

How the data were processed

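RNA of whole kernels of 4 inbred maize lines at 5 times was sequenced by the study (TruSeq), and T209 and T210 at 40 and 50 DAP, with 10 to 30 DAP for comparison, were analysed here. The authors deposited 1 table of FPKM with a row per gene or assembled locus and a column per library, all of which were matched to a library by name. Bowtie 0.12.2, Cuffdiff, and the genome B73 RefGen_v3 are named in the submitters' processing notes without a role, and the annotation is not given in the sources used here. Symbols were taken from RefSeq (assembly Zm-B73-REFERENCE-NAM-5.0), and nothing else was used from it. FPKM keeps no read counts, so no counting interval is given. Relative depth was read from the steps between low values.

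Tests were run on log2(FPKM + 1) in limma 3.58.1 under R 4.3.3 (variance trend, two-sided, Benjamini-Hochberg over all rows tested). A row was tested when 2 or more libraries reached 1 FPKM. The line difference used DAP as a term, and the differences at each DAP, their change, and the late minus early change (16 libraries) used group means. With 2 ears per group, each test assumes a spread shared by the groups. The script was tested on simulated data. Alternatives were a pseudocount of 0.1, no filter, a filter of 5 FPKM, median-ratio rescaling, no variance trend, the ear number as a block, relative depth as a term, all 40 libraries in 1 model, each library left out, and 30 DAP in place of 10 and 20 DAP.

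The genes named were up to 6 of each list by size of difference or level, and, among rows with a symbol, the 12 largest non-overlapping differences in each direction and up to 6 of the largest changes between times, and 1 row that met both of the latter rules is not reported here. The libraries and lists were chosen with earlier results of these data known. The lists of aquaporin, ribosomal protein, heat shock, PP2C, GST, PEBP, phytate, and lipid transfer genes were added after the values were seen, and further members of these and other lists were named after their values were seen. Of 29407 tested rows, 1140 hold the same 40 values as another row and 8265 are assembled loci, so reads of near-identical or overlapping genes may be divided.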

Additional observations from a re-analysis of the deposited data

Results flagged for a closer look

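Line differences that changed between times by a test of the change are given here as values. From 40 to 50 DAP, the difference (T209 minus T210, log2(FPKM + 1)) changed by 3.94 for CYP92C6, 3.25 for ADH2, and -3.68 for HAK21. CYP92C6 and ADH2 were read mainly in T210 at 40 DAP, and HAK21 mainly in T209 at 40 DAP. All 3 calls were lost under some alternatives, with adjusted p up to 0.171, 0.303, and 0.204 with 1 library left out.

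From 10 and 20 DAP to 40 and 50 DAP, the difference became more positive for gz27 (11.08), gst30 (3.63), TIP2-1 (3.49), LPE1 (3.22), and TIFY10 (3.12). It became more negative for PR10 (-3.85), dzs18 (-3.86), GATA31 (-4.08), IN2-1 (-4.10), TIP3-1 (-4.16), and gst7 (-4.48). For gz27 and the delta zein gene dzs18, the lines overlapped late and the difference lay at 10 and 20 DAP. TIP2-1 was under 1 FPKM in all 8 late libraries. The call was lost for LPE1 without ear 1 of T209 at 40 DAP or either ear of T209 at 50 DAP (adjusted p = 0.0557 to 0.0635), for TIFY10 without ear 2 of T209 at 50 DAP or ear 2 of T210 at 40 DAP (adjusted p = 0.0501 and 0.057), and for GATA31 without ear 2 of T209 at 50 DAP (adjusted p = 0.0536). After rescaling it was lost for LPE1 and TIFY10 (adjusted p = 0.0647 and 0.0506), with the pseudocount of 0.1 for LPE1 and dzs18 (adjusted p = 0.0603 and 0.0586), and without a filter for LPE1 (adjusted p = 0.0611). With 30 DAP as the early time, the changes of TIP2-1, PR10, and IN2-1 were called. Those of gz27 (6.19, adjusted p = 0.142), gst30 (1.09, adjusted p = 0.205), LPE1 (1.21, adjusted p = 0.65), TIFY10 (1.68, adjusted p = 0.46), dzs18 (-2.68, adjusted p = 0.19), GATA31 (-0.25, adjusted p = 0.941), TIP3-1 (-1.21, adjusted p = 0.507), and gst7 (-1.38, adjusted p = 0.689) were not.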

How the results depend on the processing

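Of 102 gene results followed, 81 were called, of which 48 kept the call under every alternative run, 33 lost it under at least 1, and none turned direction. Of the 21 not called, 17 stayed so, 4 were called under at least 1, and 7 turned sign between alternatives. Without a filter, the late calls of glb1, EMB5, ole17, glb2, OLE18, sut4, zpu1, ZCN9, Nkd2, HSP70, HSP90-1, hsp70-4, the heat shock row GRMZM2G158232, PLTZ9, and LTP3 were lost (adjusted p = 0.055 to 0.228). Counts of called rows are given below in the order total, higher, and lower in T209. For the late line difference they were 4531, 3328, and 1203 with the filter of 5 FPKM, with 3716 higher and 3812 lower after rescaling, and 13743 in all and 9437 higher in the model of 40 libraries. With 1 library left out in turn they ranged from 5310 to 9347, 3368 to 6027, and 1942 to 3446, lowest without ear 2 of T210 at 40 DAP. At 40 DAP they were 3008, 1973, and 1035 with the filter of 5 FPKM, with 1979 higher and 3195 lower after rescaling, and 10852 and 7058 higher with 40 libraries, and ranged from 1403 to 7966, 486 to 4675, and 917 to 3291 with 1 library left out. At 50 DAP they were 1407, 835, and 572 without a filter, 1206, 722, and 484 with 5 FPKM, and 7196, 5081, and 2115 with 40 libraries, with 1271 higher and 1355 lower after rescaling and 1269 higher with the replicate block. They ranged from 103 to 4453, 29 to 2675, and 74 to 1778 with 1 library left out. For the change from 40 to 50 DAP they were 13 higher and 33 lower with the pseudocount of 0.1, 3, 2, and 1 without a filter, 15, 8, and 7 with 5 FPKM, 25, 14, and 11 without the trend, 7, 5, and 2 with the replicate block, and 787, 485, and 302 with 40 libraries, and ranged from 0 to 21, 0 to 9, and 0 to 12 with 1 library left out. For the late minus early change they were 3901, 2998, and 903 with 5 FPKM, 1299, 962, and 337 with 30 DAP as the early time, and 2698 higher and 2678 lower after rescaling, and ranged from 4709 to 8258, 3255 to 5817, and 1442 to 2441 with 1 library left out. The cause of these shifts was not tested, apart from the fewer rows tested under the filter of 5 FPKM.

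The ear numbers do not pair the libraries, since deviations of ears with the same number correlated at -0.20 to 0.13 over the 6 pairs of groups. With the ear number as a replicate block, the late line difference was called in 8178 rows, 5385 higher and 2793 lower. With 2 ears per group, leaving out 1 leaves a lone ear that is assumed to vary like the other groups. The number of reads is unknown, so values near 0 FPKM have no stated precision.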
